A study of Homo sapiens with 6 samples.

Results

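Binding of the glucocorticoid receptor (GR) to the DNA around the gene DDIT4 was followed by ChIP-seq in 2 human cell lines after dexamethasone or vehicle. The members are the places on chromosome 10, between 73980000 and 74090000 in the hg19 build, where at least 1 peak was centred in any of 12 deposited peak lists. Peaks that overlapped by at least 1 bp were joined, which gave 9 sites out of 43893 over the whole genome. The window covers DDIT4 and about 50 kb on each side, and distances are from the DDIT4 start taken as 74033700, with lower coordinates upstream. The start is approximate, so distances serve to place sites and not to measure to the base. The locus was chosen by the number of called peaks it was known to hold in these same lists, so its counts are described here and no test was made on them.

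Both lines were made from U-2OS, an osteosarcoma line, and GR was precipitated in each with an antibody against GR. The 4 groups were the MR/GR cell, in which the mineralocorticoid receptor (MR) is expressed together with GR, with dexamethasone at 100 nM for 2 hr; the GR cell with the same treatment; the MR/GR cell with vehicle (DMSO); and the GR cell with vehicle. Each group is 1 immunoprecipitated sample with 3 numbered peak lists, and each receptor combination is 1 stable line, so MR expression and any other difference between these lines cannot be told apart. The labels give the MR/GR-cell input DNA as vehicle treated and the GR-cell input DNA as dexamethasone treated, and which input each list was called against is not given in the sources used here. If each line was set against its own input, the treatment of the input cannot be told apart from the line either. Treated lists held 3713 to 10459 peaks in the MR/GR cell and 26191 to 37650 in the GR cell, and vehicle lists held 11 to 132 in the MR/GR cell and 122 to 238 in the GR cell. Lists give positions only, with no height or score, and read depth is unknown, so a site missing from a list may be unbound or may lie under the calling threshold. Whether the 3 lists of a group come from separate cultures is not given in the sources used here.

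DDIT4 encodes REDD1, a stress-induced protein that holds back the growth-promoting kinase complex mTORC1 by way of the TSC1 and TSC2 proteins. It is a classical glucocorticoid-induced gene in muscle and lymphoid cells, where its induction accompanies the catabolic action of glucocorticoids. GR is held inactive in the cytoplasm until it binds a hormone such as dexamethasone, a synthetic glucocorticoid, and then enters the nucleus and binds DNA, often at enhancers far from the genes it regulates. MR is a close relative of GR that can bind the same kind of DNA element and can also be activated by glucocorticoids.

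After dexamethasone the DDIT4 locus carried a compact group of 4 GR sites upstream of the gene that were called in all 3 MR/GR-cell lists and in all 3 GR-cell lists. They were centred 31.17, 30.02, 24.95 and 18.67 kb upstream of the DDIT4 start. In hg19 coordinates, counted from 1, they covered 74002314 to 74002737, 74003466 to 74003889, 74008513 to 74008941 and 74014831 to 74015254. Over the genome, 6.87% of all merged sites were in all 6 treated lists. None of the 6 vehicle lists had a peak at any of the 4 places. The outer members of the group lay 12.5 kb apart, and the gaps between neighbouring centres were 1.15, 5.07 and 6.28 kb.

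**Figure D1:**
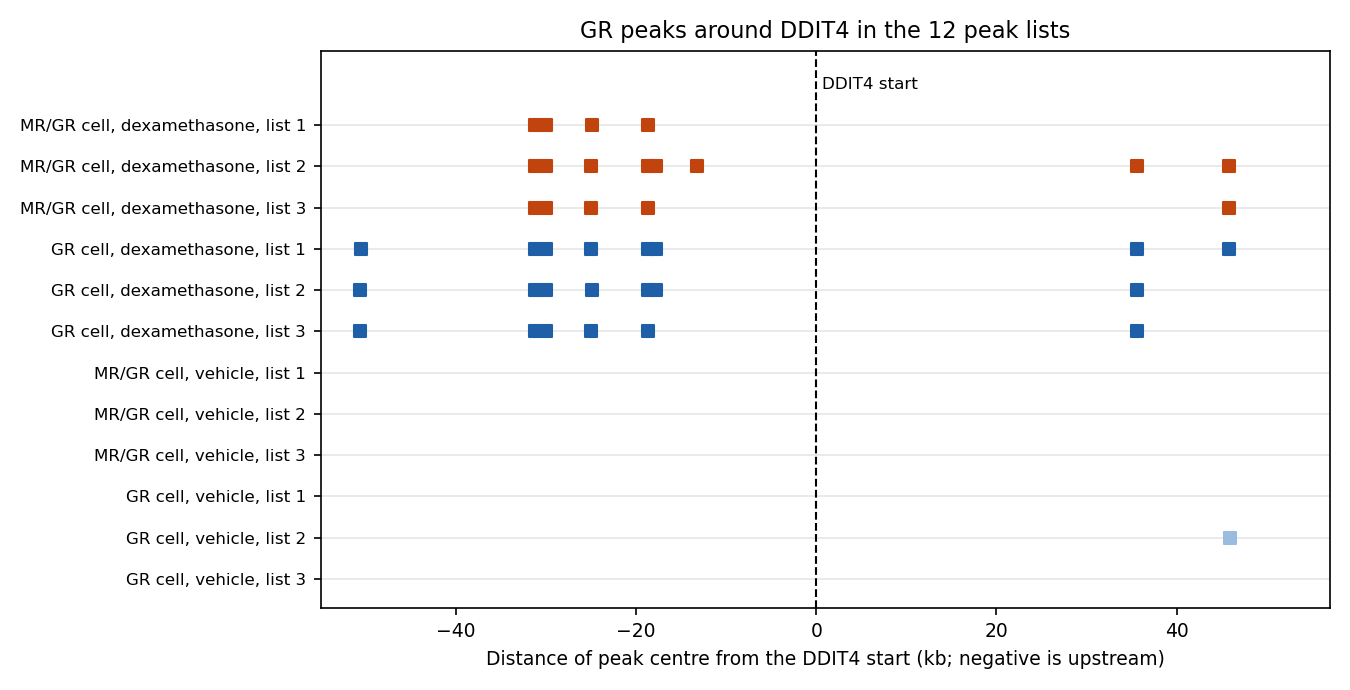
Position of every peak in the window, one row per deposited list. The x axis is the distance of the peak centre from the DDIT4 start in kb, and colours mark the line and treatment. All 6 treated lists have the 4 upstream sites between 31.17 and 18.67 kb, no list has a peak near the start, and the only vehicle peak lies downstream.

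Around this group lay 3 further upstream sites that were held by fewer lists. The most distant was centred 50.59 kb upstream (73982895 to 73983321) and was called in none of the 3 MR/GR-cell lists and in all 3 GR-cell lists. A site 17.77 kb upstream (74015749 to 74016126), 0.90 kb from its neighbour in the group of 4, was called in 1 MR/GR-cell list, list 2, and in GR-cell lists 1 and 2. The upstream site nearest to the gene was centred 13.19 kb from the start (74020365 to 74020648) and was called in MR/GR-cell list 2 alone. That list was the longest of the MR/GR cell, with 10459 peaks. Sites held by a single MR/GR-cell list and no GR-cell list made up 4.41% of all treated sites, and this one rests on a single peak.

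No list of either line or treatment had a peak at the DDIT4 start or in the gene. Between 74020648 and 74069101 no peak was called in any of the 12 lists, a stretch of 48.5 kb that reached from 13.1 kb upstream of the start to 35.4 kb downstream. Beyond it lay 2 downstream sites. The nearer, centred 35.63 kb downstream (74069101 to 74069524), was called in 1 MR/GR-cell list, list 2, and in all 3 GR-cell lists. The farther, 45.80 kb downstream (74079300 to 74079846), was called in MR/GR-cell lists 2 and 3 and in GR-cell list 1. Of the 9 sites, 7 were upstream (77.8%, Wilson 95% interval 45.3 to 93.7, for counting error only). The interval treats neighbouring sites as independent, which they may not be. The locus was also chosen with these calls known, so the share only describes it. The share depended on the flank: it was 100% with 25 kb and 58.3% with 100 kb. In RefSeq's GRCh38 gene table the protein-coding neighbours of DDIT4 are ANAPC16 and DNAJB12. Whether a site lies inside either of them in hg19, and the DNA sequence of the sites, were not analysed here.

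**Figure D2:**
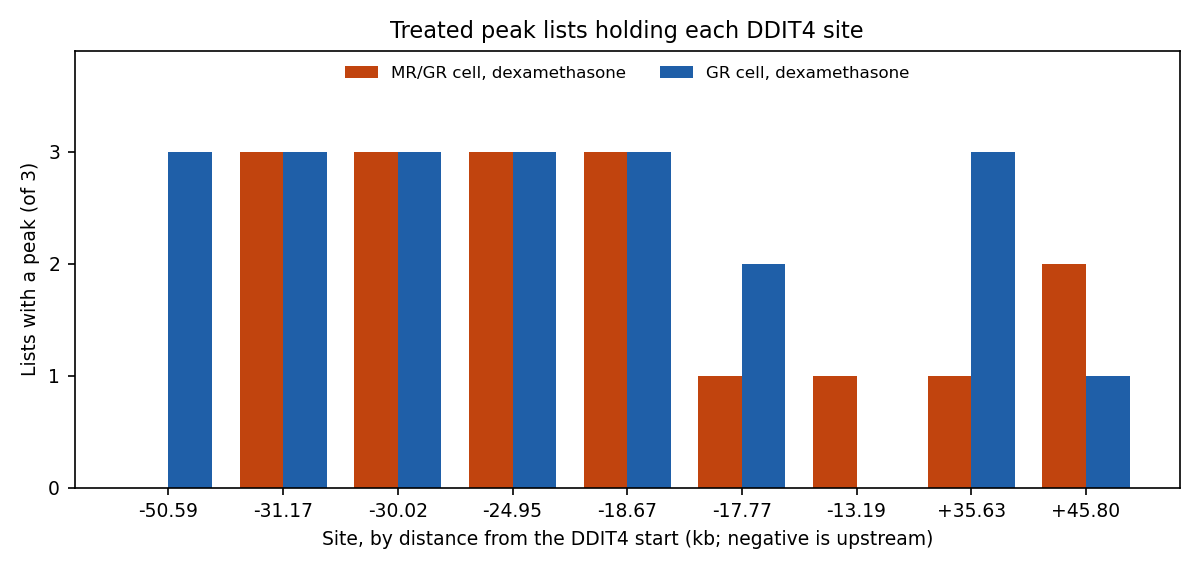
Number of treated peak lists, of 3 per line, with a peak at each of the 9 sites, ordered by distance from the DDIT4 start in kb. The 4 sites from 31.17 to 18.67 kb upstream reach 3 in both lines, and the site 50.59 kb upstream has no MR/GR-cell bar.

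The members at the edges depend on where the window ends. The site 50.59 kb upstream was the one nearest the upstream border, and the next treated site beyond that border was 154.3 kb from the start, in 2 MR/GR-cell and 3 GR-cell lists. Beyond the downstream border the next site, 61.2 kb from the start (74094641 to 74095068), was in all 3 lists of each line. It was also the nearest site of that kind downstream of the group of 4, 79.8 kb from it, while upstream the nearest lay 211.9 kb away.

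The numbers of peaks in the window were close in the 2 lines although their lists differed in length. MR/GR-cell lists 1, 2 and 3 had 4, 8 and 5 peaks there, and GR-cell lists 1, 2 and 3 had 8, 7 and 6. The values overlapped: the highest MR/GR-cell list equalled the highest GR-cell list, and the lower 2 MR/GR-cell lists were below every GR-cell list. The means were 5.67 ± 2.08 peaks in the MR/GR cell and 7.0 ± 1.0 in the GR cell (SD over n = 3 lists per line), and the ratio was 0.81. Over whole lists the ratio of mean peak number was 0.22.

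As a share of its list, the window held more in the MR/GR cell. MR/GR-cell lists 1, 2 and 3 had 0.108% (Wilson 95% interval 0.0419 to 0.277), 0.0765% (0.0388 to 0.151) and 0.0751% (0.0321 to 0.176) of their peaks there. GR-cell lists 1, 2 and 3 had 0.0212% (0.0108 to 0.0419), 0.0226% (0.011 to 0.0467) and 0.0229% (0.0105 to 0.05). Every MR/GR-cell share was above every GR-cell share. The means were 0.0865% ± 0.0186 in the MR/GR cell and 0.0222% ± 0.00091 in the GR cell (SD over n = 3 lists per line), and the ratio was 3.88. The intervals cover counting error only, and that of each MR/GR-cell list reaches into the intervals of the GR cell. The share is divided by list length, and the ratio of mean list length was 0.22, while that of mean peak number in the window was 0.81. The higher mean share in the MR/GR cell thus goes with its shorter lists and not with more peaks in the window. Why the lists differ in length was not tested.

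**Figure D3:**
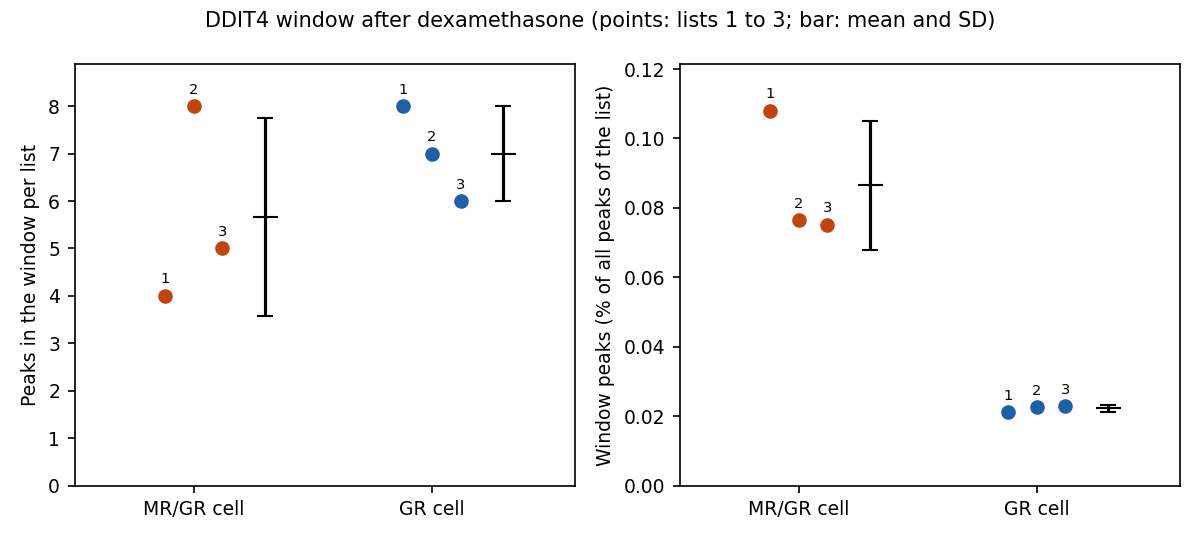
Peaks in the DDIT4 window per treated list as a count (left) and as a percentage of all peaks of the list (right). Points are lists, numbered, with the mean and SD of 3 lists beside them. The counts of the lines overlap, from 4 to 8 in the MR/GR cell and 6 to 8 in the GR cell, while the percentages do not.

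Most of the reproducible DDIT4 sites of the GR cell were also sites of the MR/GR cell. At least 2 of 3 lists held 5 of the 9 sites in the MR/GR cell, where 13.6% of all merged sites met that rule, and 7 of the 9 in the GR cell, where 69.2% did. In both lines at once, 4 of the 9 were held so, and over the genome 12.4%. Of the 7 sites of the GR cell by that rule, 4 (57.1%) were also sites of the MR/GR cell, beside 17.9% over the genome. Of the 6 sites called in all 3 GR-cell lists, 4 were held by at least 2 MR/GR-cell lists (66.7%, Wilson 95% interval 30.0 to 90.3), beside 22.5% of such sites over the genome. The other 2 were the sites 50.59 kb upstream, in no MR/GR-cell list, and 35.63 kb downstream, in 1. At least 1 MR/GR-cell list thus had 5 of these 6, beside 34.4% over the genome, where the other 65.6% were in no MR/GR-cell list. The site 17.77 kb upstream, in 2 GR-cell lists, was in 1 MR/GR-cell list and so short of the rule of at least 2. Over the genome 3.47% of sites of 2 GR-cell lists met that rule, and the share in at least 1 was not computed. The sites 13.19 kb upstream and 45.80 kb downstream were in more MR/GR-cell than GR-cell lists, as were 5.86% of all treated sites, and in each the margin was 1 list. Because the locus was picked with these calls known, the difference from the genome is not evidence about it.

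Over the genome, GR-cell sites with close neighbours had a higher share called in the MR/GR cell, and the group upstream of DDIT4 had such neighbours. Among sites of 3 GR-cell lists, the share that the MR/GR cell had in at least 2 lists was 34.1% for those with 2 or more other such sites within 10 kb (287 of 842, Wilson 95% interval 31.0 to 37.4), 26.5% for those with 1 (25.2 to 27.7) and 20.9% for those with 0 (20.3 to 21.5). The intervals cover counting error only and treat neighbouring sites as independent, which they may not be. At DDIT4 the sites 31.17, 30.02, 24.95 and 18.67 kb upstream had 2, 2, 3 and 1 such neighbours. The sites 50.59 kb upstream and 35.63 kb downstream, which the MR/GR cell held in 0 and 1 lists, had 0. With 6 sites in 1 locus this is a description of where they fall and not a test.

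Without hormone the locus was almost empty. MR/GR-cell vehicle lists 1, 2 and 3 had 0 peaks in the window, and GR-cell vehicle lists 1, 2 and 3 had 0, 1 and 0. The vehicle lists were short, so most treated sites had no vehicle peak: 0.965% of all treated sites overlapped one in either line. The single vehicle peak, of GR-cell list 2, covered 74079495 to 74079846 and overlapped the site 45.80 kb downstream, not one of the 4 upstream sites. Its centre lay 186 bp from that of MR/GR-cell list 2, 159 bp from that of MR/GR-cell list 3 and 194 bp from that of GR-cell list 1, in each case on the side away from the gene. With peaks joined only when centres were at most 100 bp apart, it became a site of its own. Of the treated lists of its own line, 1 of 3 had a peak at that site. Over the genome 70.1% of sites with a vehicle peak also had a treated peak.

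Peak positions within the 4 shared upstream sites were tight across lines. At the site 31.17 kb upstream, the centres were 31174, 31172 and 31166 bp upstream of the start in MR/GR-cell lists 1, 2 and 3, and 31171, 31167 and 31175 bp in GR-cell lists 1, 2 and 3. All 6 fell within 9 bp, and the lines overlapped. At the site 30.02 kb upstream they were 30051, 30022 and 30017 bp in the MR/GR cell and 30025, 30024 and 30023 bp in the GR cell. MR/GR-cell list 1 stood apart from the other 5, which lay close together.

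At the site 24.95 kb upstream the centres were 24948, 24951 and 24949 bp in the MR/GR cell and 24973, 24942 and 24976 bp in the GR cell, so here the MR/GR-cell lists lay inside the range of the GR-cell lists. At the site 18.67 kb upstream they were 18694, 18677 and 18667 bp in the MR/GR cell and 18660, 18673 and 18658 bp in the GR cell, with overlapping ranges. In hg19 coordinates, the mean centre of the MR/GR cell minus that of the GR cell was 0.3, -6.0, 14.3 and -15.7 bp. These values are for the 4 sites from the most distant to the nearest. A positive shift is towards the gene, so its sign is opposite to a difference of the upstream distances above. Over the 3017 sites in all 6 treated lists the median size of that shift was 16.7 bp.

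The spread of the 6 centres was smaller here than at most shared sites. Its SD was 3.7 bp at the site 31.17 kb upstream, 12.1 bp at 30.02 kb, 14.3 bp at 24.95 kb and 13.2 bp at 18.67 kb, beside a median of 26.1 bp over the 3017 sites (quartiles 17.5 and 36.4). At the site 31.17 kb upstream 0.0994% of those 3017 sites had a smaller SD, and at the other three 10.4%, 15.9% and 13.0% did. Within a line, the 3 centres of a site spanned 3 to 34 bp in the MR/GR cell (median over the 3017 sites 50 bp) and 2 to 34 bp in the GR cell (median 32 bp). Position within a site was not used to choose the locus, but the lists are not independent of one another. The 3 lists of a line belong to 1 sample, the locus was chosen for its calls in them, and no test was made. Peak widths were fixed per list (1 list had a second width), at 280 to 304 bp in the treated MR/GR cell and 354 to 424 bp in the treated GR cell, so the extent of a site follows the width of its peaks and only centres are compared.

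**Figure D4:**
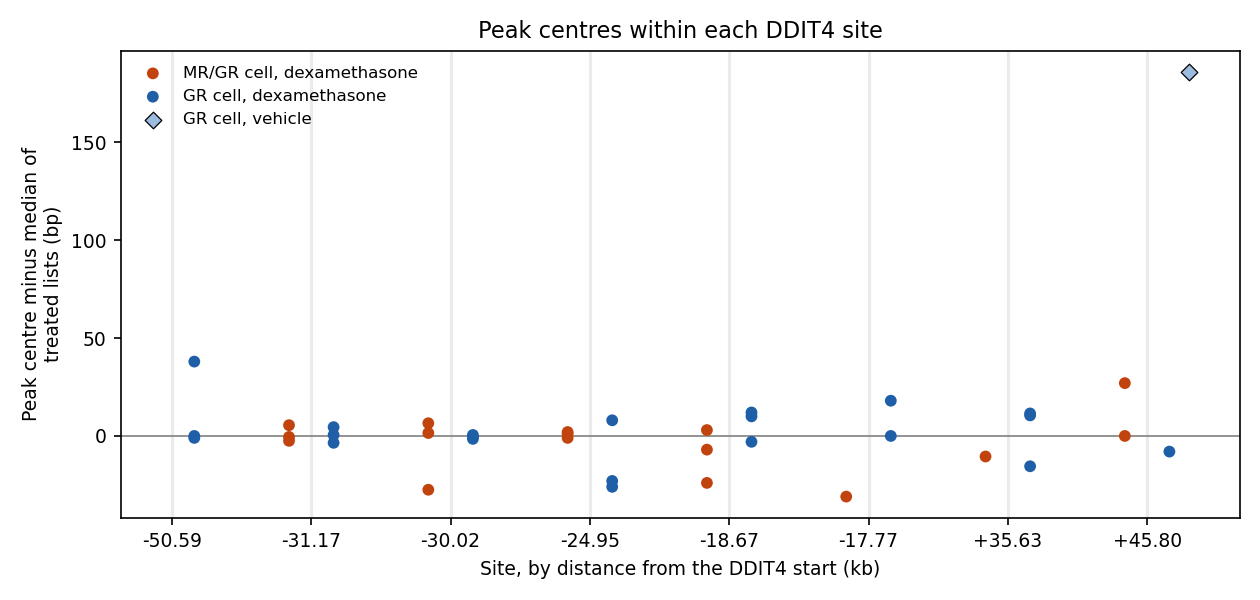
Peak centres at the 8 sites with more than 1 treated peak, in bp from the median centre of the treated lists of that site (positive is towards higher coordinates). Circles are treated lists and the diamond is the GR-cell vehicle peak, which lies 186 bp from the treated median at the site 45.80 kb downstream.

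Groups of shared sites as dense as this one were uncommon in these lists. The locus was chosen for the number of peaks called there in these same lists. Its place among the crowded loci follows from that choice and is not evidence about it. Of 18478 consecutive windows of 110 kb with at least 1 treated site, 22 (0.119%) had 4 or more sites in all 6 treated lists, and the most had 7. At least 9 sites of any kind were in 90 windows (0.487%), and at least 7 sites of the GR cell in 122 (0.66%). The DDIT4 window was placed round its gene, while the counted windows stand on a fixed grid that also covers this locus. The grid window that holds the 4 DDIT4 sites is among the 22. These shares only describe the locus. When sites of all 6 lists were chained wherever centres were at most 10 kb apart, the 3017 sites fell into 2832 chains, of which 2670 were single sites. The DDIT4 chain of 4 was one of 4 chains with at least 4 sites. The others were 6 sites on chromosome 11 (114025142 to 114050343), 5 on chromosome 6 (35683172 to 35700042) and 4 on chromosome 4 (55882017 to 55904822). The 4 DDIT4 sites spanned 12.5 kb, less than the 22.4 kb of the chromosome 4 chain, which also had 4. The chains of 6 and 5 sites spanned 24.8 and 16.4 kb. A chain with more sites has more gaps, so these spans do not rank DDIT4 as the densest.

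**Figure D5:**
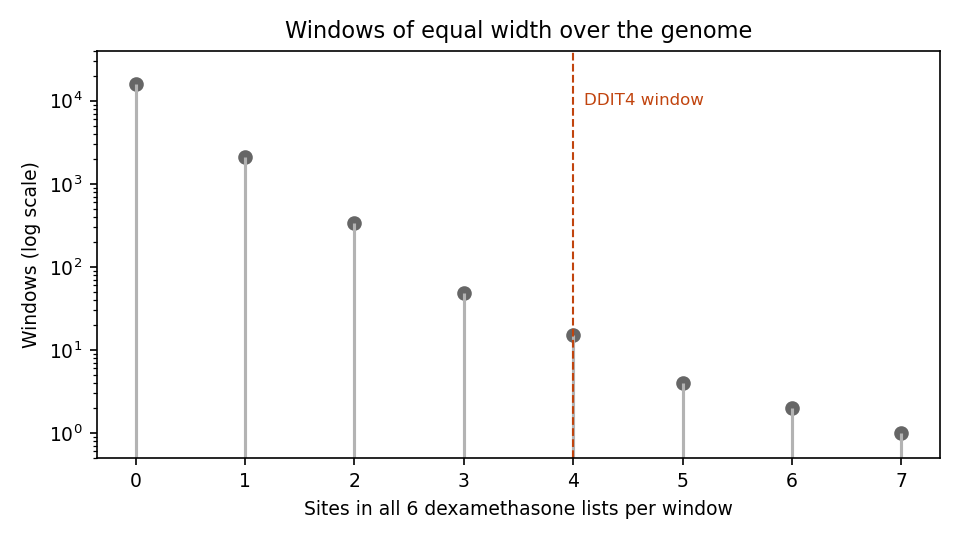
Number of 110 kb windows over the genome (log scale) by how many sites in all 6 treated lists they hold, among 18478 windows with a treated site. The dashed line marks the 4 such sites of the DDIT4 window. In all, 22 windows hold 4 or more, and the grid window that covers the 4 DDIT4 sites is among them.

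Windows with a similar pattern of peak numbers were found by the Euclidean distance between log2(peaks + 1) in the 12 lists, which measures number and not position. The closest was on chromosome 8 (49500001 to 49610000), at a distance of 0.62, with 5, 6 and 5 treated peaks in the MR/GR cell and 9, 8 and 8 in the GR cell. It was followed by chromosome 2 (43230001 to 43340000), at 0.76, with 3, 5 and 4 in the MR/GR cell and 9, 6 and 6 in the GR cell. The third was chromosome 20 (48950001 to 49060000), at 1.07, with 5, 8 and 5 in the MR/GR cell and 8, 6 and 7 in the GR cell. These windows held 5, 3 and 5 sites in all 6 treated lists, beside 4 at DDIT4.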

How the data were processed

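The authors deposited, per the labels, 3 peak lists for each of 4 GR immunoprecipitations; 2 input samples had no list used here. The deposited values are other than read counts: a chromosome, start and end per peak, with no score. Names of the lists mark each as set against input, without saying which; the labels give the MR/GR-cell input as vehicle treated and the GR-cell input as dexamethasone treated. Per the submitters' processing notes, the tools were HOMER 4.8.3, Picard 1.115, SAMtools 1.3.1, Bowtie and Trim Galore 0.4, with the hg19 build; their roles, settings and the calling threshold are not given in the sources used here. List numbers come from the deposited lists.

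All 116356 peaks were joined into sites over the genome (overlap of at least 1 bp), and the 43893 sites equalled the number from bedtools 2.31.1. Joining was tested on simulated lists in which separate sites never overlapped and peaks of a site always did. That run checks the code and not how close or shifted peaks should be joined. Site shares have Wilson 95% intervals. Scripts ran in Python 3.11.15 with pandas 2.3.3, SciPy 1.17.1, numpy 2.4.6 and matplotlib 3.10.9. Every site in the window was reported. The window, rules and comparisons were chosen with earlier results of these data known. Sequence motifs and mTORC1 pathway genes were not analysed here, since no hg19 genome or annotation was used here. Alternatives were other joining rules, flanks, list numbers, treated lists alone, peaks as a share of the list, and leaving out each list.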

Additional observations from a re-analysis of the deposited data

How the results depend on the processing

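Of 160 alternatives, 147 kept their value within 1.5 times (counts) or within the counting interval or SD (shares and the peak ratio). Many of the 160 had little or no room to move, so this tally does not measure how stable the results are. Leaving out a vehicle list left every result counted on treated lists alone as it was. Leaving out a treated list of one line likewise left the site count of the other line as it was. Shares of so few sites also have wide counting intervals. Sites in all treated lists numbered 4 under both other joining rules and without any 1 list. Leaving out a treated list could only keep or raise that number, since fewer lists were then required. With a flank of 25 kb there were 4 sites, 2 of the MR/GR cell, 3 of the GR cell, 2 of both and 2 in all 6 lists, 100% upstream and 0 with a vehicle peak; these counts fall because the flank holds fewer sites. With a flank of 100 kb, 58.3% of 12 sites were upstream and 2 sites had a vehicle peak. With peaks joined only when centres were at most 100 bp apart, 70.0% of 10 sites were upstream. With 1 of 3 lists enough, the MR/GR cell had 8 sites, both lines 7, and the MR/GR cell held 87.5% of GR-cell sites, against 57.1% with 2 lists. As a share of each list's peaks, the ratio of the MR/GR cell to the GR cell was 3.88, against 0.81 for peak numbers; the share divides by list lengths that differ.

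Leaving out 1 list gave 8 to 9 sites, 4 to 5 of the MR/GR cell, 6 to 7 of the GR cell, 4 to 4 of both, 4 to 4 in all treated lists left, a share of 57.1% to 66.7%, a peak ratio of 0.643 to 0.929, 75.0% to 77.8% upstream and 0 to 1 sites with a vehicle peak. The value of 0 came without GR-cell vehicle list 2, and the site 13.19 kb upstream was lost without MR/GR-cell list 2. No paired analysis was possible because no test was made and each group is 1 sample in the labels. A stricter calling threshold was not run, since the lists carry no score.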
